A study of Mus musculus with 6 samples.

Results

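The immediate early genes examined here are Fos, Fosb, Jun, Junb, Jund, Egr1, Egr2, Egr3, Nr4a1 and Ier2, 10 of the 19936 genes tested. They were chosen by name, each as the probe set that the array's gene table pairs with that symbol, and each was read by 1 probe set. The arrays hold RNA from pre-B cells of C57Bl6 mice aged 4 weeks that had been transformed by BCR-ABL1, the oncogenic kinase of Ph+ acute lymphoblastic leukaemia, in a background the labels give as wild-type. The cells of both groups carry BCR-ABL1 and had been transduced either with the retroviral vector pMIG alone (empty vector, n = 3 arrays) or with pMIG-IKZF1, which supplies IKZF1, the Ikaros gene, whose zinc finger protein regulates lymphocyte genes (IKZF1, n = 3 arrays). Cells positive for green fluorescent protein were sorted 3 days after transduction. The labels do not name the species or isoform of the insert, the number of transformed clones or the culture and animal behind each array. The p-values therefore reflect only how far these arrays differ, which may be a technical spread.

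Immediate early genes are switched on within minutes of a signal, without prior protein synthesis, by transcription factors already bound or waiting at their promoters, such as SRF with its ternary complex partners and CREB. FOS and JUN proteins are leucine zipper factors that pair to form AP-1. EGR1, EGR2 and EGR3 are zinc finger factors that bind GC-rich DNA and are restrained by the corepressors NAB1 and NAB2. NR4A1, also called Nur77, is a nuclear receptor without a known physiological ligand whose transcript serves as a read-out of antigen receptor signalling in lymphocytes. In B-lineage cells the ERK pathway, which BCR-ABL1 also engages, is a main route to these genes.

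Levels are log2(intensity + 1) of values normalized by the authors, and differences are IKZF1 minus empty vector on that scale. Where 3 values are given for a group, they are those of its arrays 1, 2 and 3. The transduced gene, Ikzf1, had levels of 11.85, 11.78 and 11.98 with the empty vector and 13.09, 13.14 and 13.06 with IKZF1, so the arrays follow their labels. Background stands here for the level of 6.18, below which 95% of 1194 olfactory and vomeronasal receptor genes fell. Of 12 pre-B cell markers 11 were measured, and by their means over the 6 arrays all 11 lay above that level. On single arrays Rag2 lay below it, with 5.53 on empty vector 2 and 6.03 on IKZF1 2. All 10 immediate early genes lay above it as well, Egr2 and Fos by the least. Empty vector 3 stood apart from the other arrays on the first principal component, at -41.7 against -2.73 to 24.5 for the other 5, and a value without it is given for each member whose difference it moved by over 1.5 times and for each list whose count of calls it moved. Arrays with the same replicate number in their titles deviated together by the check described under the processing, which 1 pair of different numbers also passed. The labels do not say what a number marks, so replicate number as a block was fitted as an alternative for each result.

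Nr4a1, Fos and Egr3 were the immediate early genes with all 3 IKZF1 arrays above all 3 empty vector arrays. Their levels were 1.55-fold, 1.35-fold and 1.25-fold higher, and none reached the threshold, an adjusted p below 0.05, in the comparison of groups alone (limma). With the replicate block all 3 passed, and no other member did. Fosb and Jun had differences of like size to that of Egr3 with overlapping groups, Junb and Jund differed little, and Egr1, Egr2 and Ier2 had differences below 0.

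**Figure D1:**
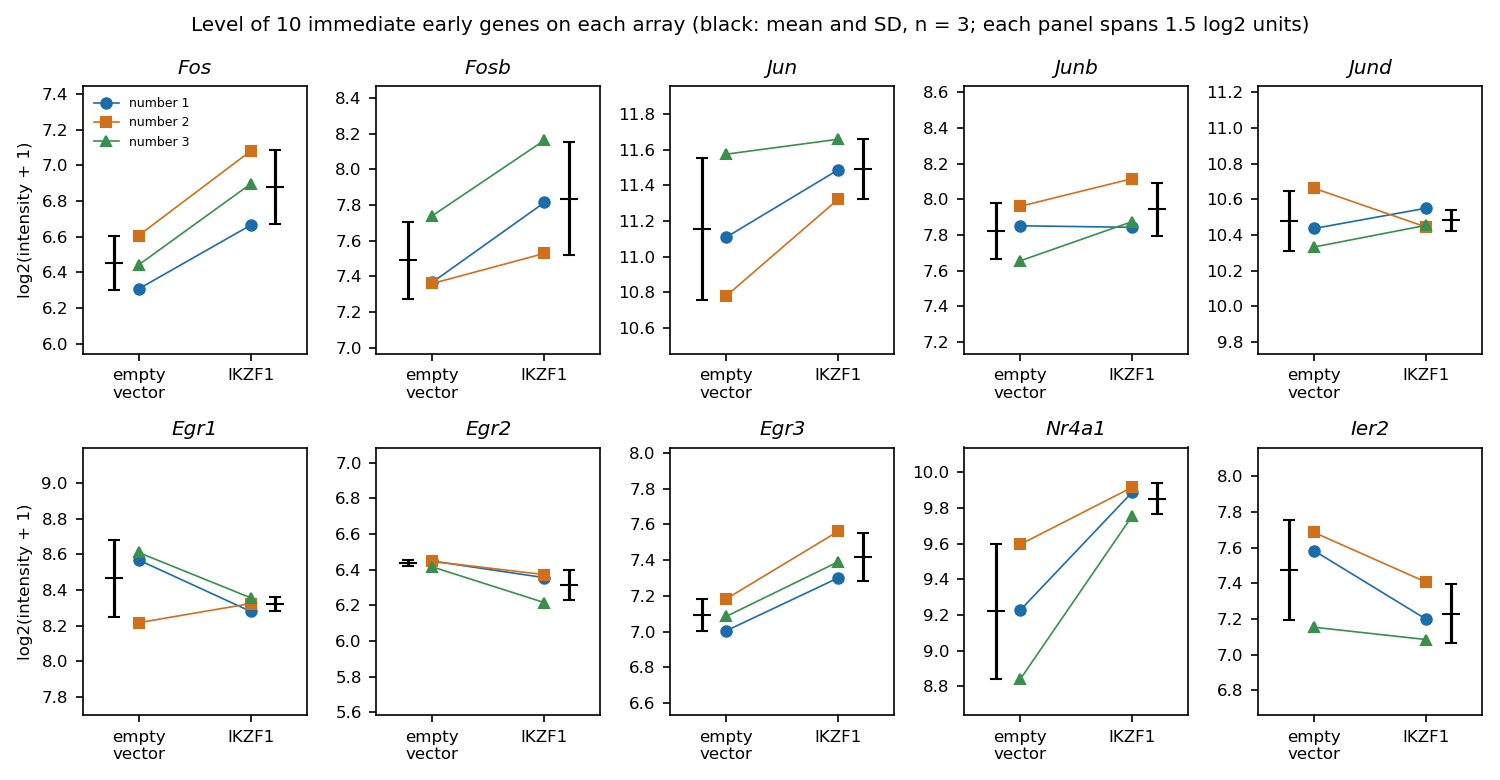
Level of each immediate early gene as log2(intensity + 1), with 1 panel per gene. Coloured points are arrays, lines join arrays of the same replicate number, and black bars give the mean and SD of 3 arrays. The lines of Fos, Egr3 and Nr4a1 all go up and their groups do not overlap, and those of Jund cross.

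Over the 10 genes, 0 passed the threshold in limma, where 2.25% of all 19936 genes did (1.12% higher and 1.13% lower), and 3 had an unadjusted p under 0.05, where 18.4% of all genes did. The groups did not overlap for 4 of them, 3 higher and 1 lower, beside 26.5% of all genes (15.2% higher and 11.3% lower). With the replicate block 3 passed, all higher, beside 7.21% of all genes (3.36% higher and 3.85% lower). The IKZF1 array lay on the same side of the empty vector array of its number in all 3 pairs for 7 members, beside 50.6% of all genes. The median difference over the members was 0.22, against 0.03 over all genes. The members were few and were chosen with earlier results of these data known, so these counts describe them only.

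Fos encodes c-FOS, the AP-1 subunit that cannot pair with itself and needs a JUN partner. Its probe set read 6.31, 6.61 and 6.44 with the empty vector and 6.66, 7.08 and 6.90 with IKZF1. The lowest IKZF1 array was thus 0.06 above the highest empty vector array, and the order of the 3 numbers was the same in both groups. The difference was 0.43 ± 0.13 (SE, n = 3 per group; 95% interval 0.12 to 0.73; limma, adjusted p = 0.15), and with the replicate block 0.43 ± 0.06 (adjusted p = 0.023). The pairs of number 1, 2 and 3 gave 0.36, 0.47 and 0.45. With the block, Fos did not pass once the arrays of number 1 or those of number 2 were left out (limma, adjusted p = 0.16 and 0.12), where 0.125% and 0.281% of all genes passed. It passed without those of number 3 (adjusted p = 0.017), where 12.5% of all genes did.

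Fosb, a second FOS family subunit, read 7.37, 7.36 and 7.74 with the empty vector and 7.81, 7.53 and 8.16 with IKZF1. Empty vector 3 lay above IKZF1 2, so the groups overlap, while each IKZF1 array was higher than the empty vector array of its own number, by 0.45, 0.17 and 0.42. The difference was 0.35 ± 0.18 (SE, n = 3 per group; limma, adjusted p = 0.36, and 0.061 with the replicate block). Of the 2 FOS genes of the set, Fos thus separated the groups and Fosb did not, and whether their differences are unequal was not tested.

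Jun, which encodes the AP-1 subunit c-JUN that JNK phosphorylates, read 11.11, 10.78 and 11.57 with the empty vector and 11.49, 11.32 and 11.66 with IKZF1. The empty vector arrays spread over 0.79, more than the mean difference, and empty vector 3 lay within the IKZF1 range. The difference of 0.33 ± 0.20 (SE, n = 3 per group) had a 95% interval of -0.15 to 0.82 (limma, adjusted p = 0.42, and 0.11 with the replicate block). Leaving out empty vector 3 gave 0.54 (adjusted p = 0.080), and leaving out empty vector 2 gave 0.15 (adjusted p = 0.64). With the block and without the arrays of number 3, Jun passed (0.46, adjusted p = 0.012), as did 12.5% of all genes.

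Junb and Jund encode JUN proteins that are often found to oppose c-JUN. Junb read 7.85, 7.96 and 7.66 with the empty vector and 7.84, 8.12 and 7.88 with IKZF1. Jund read 10.44, 10.66 and 10.33 with the empty vector and 10.55, 10.44 and 10.45 with IKZF1. Groups overlapped for both, and the IKZF1 arrays of Jund all lay inside the empty vector range. Without empty vector 3, Junb had 0.04 and Jund -0.066. The differences were 0.12 ± 0.11 for Junb and 0.0059 ± 0.095 for Jund (SE, n = 3 per group; limma, adjusted p = 0.58 and 0.98), with 95% intervals of -0.14 to 0.39 and -0.22 to 0.23. A change of Jund beyond 0.23 in either direction lies outside that interval, and the direction of Jund turned with single arrays left out and with arrays centred on their medians.

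Of the 3 EGR genes, Egr3 had a difference above 0 and Egr1 and Egr2 below it, and whether their differences are unequal was not tested. Egr3, whose product acts together with EGR1 in T cell development, read 7.00, 7.18 and 7.08 with the empty vector and 7.30, 7.56 and 7.39 with IKZF1. Every IKZF1 array lay above every empty vector array, and the 3 pairs differed by 0.30, 0.38 and 0.31, the narrowest spread of pair differences among the 5 members with a difference above 0.3. The difference was 0.33 ± 0.09 (SE, n = 3 per group; 95% interval 0.11 to 0.54; limma, adjusted p = 0.13), and 0.33 ± 0.06 with the replicate block (adjusted p = 0.038). That call was lost without the arrays of number 1 or of number 2 (adjusted p = 0.21 and 0.15).

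Egr1, the most widely studied EGR gene, read 8.57, 8.22 and 8.61 with the empty vector and 8.28, 8.32 and 8.36 with IKZF1. The IKZF1 arrays agreed within 0.08 and lay inside the range of the empty vector arrays, of which number 2 was the lowest of all 6. The difference was -0.14 ± 0.11 (SE, n = 3 per group; 95% interval -0.41 to 0.12; limma, adjusted p = 0.52, and 0.38 with the replicate block), and -0.07 without empty vector 3 (adjusted p = 0.77). Egr2, a regulator best known from myelinating Schwann cells and hindbrain development, read 6.45, 6.45 and 6.42 with the empty vector and 6.36, 6.37 and 6.22 with IKZF1. Egr2 was the one member whose IKZF1 arrays all lay below the empty vector arrays, with a difference of -0.12 ± 0.06 that did not pass (limma, adjusted p = 0.37, and 0.28 with the replicate block). Its level lay close to the background level of 6.18, where a difference can be understated, which was not tested here.

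Nr4a1 had the largest difference of the set. It read 9.23, 9.60 and 8.84 with the empty vector and 9.89, 9.92 and 9.76 with IKZF1. The IKZF1 arrays lay within 0.16 of each other and the empty vector arrays within 0.76, with empty vector 3 the lowest. The difference was 0.63 ± 0.18 (SE, n = 3 per group; 95% interval 0.19 to 1.07; limma, adjusted p = 0.15), and with the replicate block 0.63 ± 0.12 (adjusted p = 0.040). Within pairs it was 0.66, 0.32 and 0.92 for number 1, 2 and 3. Single empty vector arrays moved its size: dropping number 3 gave 0.44 (adjusted p = 0.11), and dropping number 2 gave 0.82 (adjusted p = 0.064). With the block, Nr4a1 did not pass without the arrays of number 1 or of number 2 (adjusted p = 0.22 and 0.080). A 2-sided exact permutation test over the 6 arrays gave p = 0.1 for Nr4a1, Fos, Egr3 and Egr2, the smallest that 3 arrays against 3 allow.

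Ier2, a small nuclear protein gene induced along with Fos and Jun, read 7.58, 7.69 and 7.15 with the empty vector and 7.20, 7.41 and 7.08 with IKZF1. Each IKZF1 array was lower than the empty vector array of its number, by 0.38, 0.28 and 0.07, yet empty vector 3 was lower than IKZF1 1 and 2. The difference was -0.24 ± 0.16 (SE, n = 3 per group; 95% interval -0.62 to 0.13; limma, adjusted p = 0.44, and 0.13 with the replicate block). Without empty vector 3 it was -0.40 (adjusted p = 0.099). Without the arrays of number 3 and with the block, Ier2 was lower (-0.33, adjusted p = 0.040), where 12.5% of all genes passed.

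**Figure D2:**
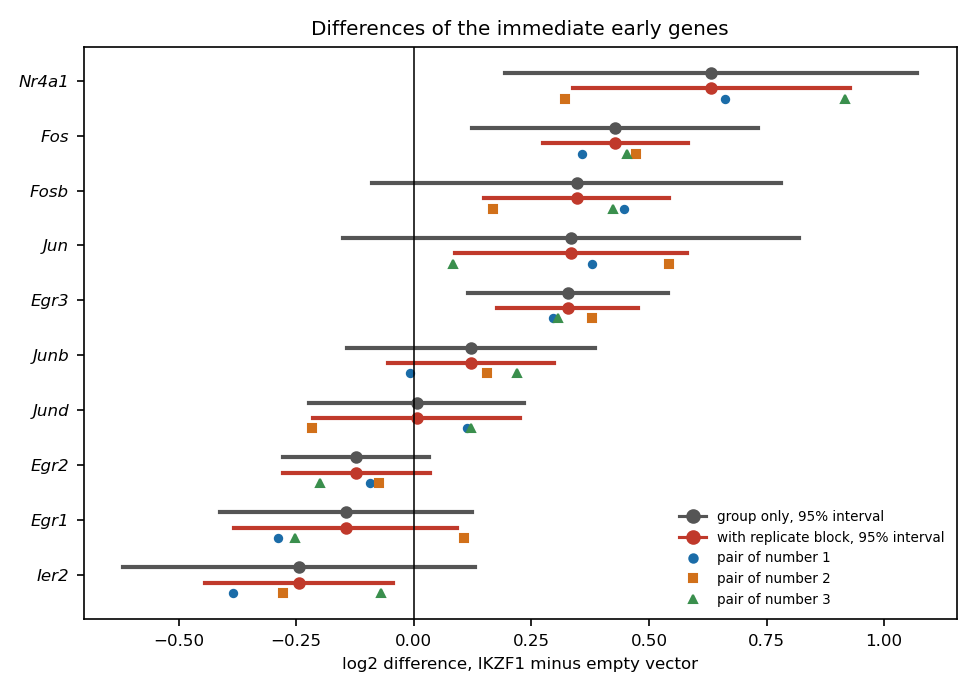
Log2 difference, IKZF1 minus empty vector, of the 10 immediate early genes in order of size, with 95% intervals from limma without (grey) and with (red) the replicate block and the difference of each same-numbered pair as coloured symbols. The intervals of Nr4a1, Fos and Egr3 lie above 0 in both fits, and those of Fosb, Jun and Ier2 leave 0 only with the block; the intervals are not adjusted for the number of genes.

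The arrays varied in 2 ways among these genes, given here as a description over 6 arrays that share their groups. Fos and Egr3 kept nearly the same order on the 6 arrays (Pearson r = 0.99), with IKZF1 2 the highest and empty vector 1 the lowest for both. Jun and Ier2 ran opposite to each other (r = -0.98): Jun was second highest on empty vector 3, where Ier2 was second lowest, and lowest on empty vector 2, where Ier2 was highest. Fosb ran with Jun (r = 0.86) and against Ier2 (r = -0.92). Nr4a1 ran with Egr3 (r = 0.81) and Fos (r = 0.78), and hardly with Jun (r = -0.01). These values include the difference between the groups. For deviations from the group means, r was 0.98 for Fos with Egr3, -0.97 for Jun with Ier2, 0.80 for Fosb with Jun and -0.89 for Fosb with Ier2. For Nr4a1 it changed more, to 0.35 with Egr3, 0.32 with Fos and -0.98 with Jun, so within groups Nr4a1 was low on the arrays where Jun was high.

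The genes most like each member were sought among the 12649 other genes above the background level, by Pearson r over the 6 arrays, which again includes the group difference. Klf2, the gene of a zinc finger factor of lymphocyte quiescence and itself an immediate early gene, was among the 3 nearest to Nr4a1 (r = 0.998), after 9030619P08Rik (0.998) and the amino acid transporter gene Slc43a2 (0.998). Sik1, which encodes a kinase that restrains CREB coactivators, was nearest to Fosb (r = 0.99). For Jun the nearest were D330050I16Rik, Spin1 and Chmp7 (r = 0.997, 0.996 and 0.993), and for Ier2 the kinase gene Map3k8 (r = 0.99), then Tmem268 and Rbm43 (both 0.99). Those of Fos were Ms4a15, Sppl2c and Krt88 and those of Egr3 were Krt88, Slc22a17 and the olfactory receptor gene Olfr632, with r between 0.991 and 0.996. The nearest to Junb were Ripor3, Lst1 and Rec8, to Jund Tmem203, Ndst2 and Fuz, to Egr1 Eef1akmt1, Ndufaf4 and Tyms, and to Egr2 Gm7008, Phactr2 and Hexdc (r from 0.957 to 0.996). For every member the 3 nearest genes reached r of 0.957 or more, also for Jund, which differed little. A high r picked from so many genes over 6 arrays is thus a description only.

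Because a keratin and an olfactory receptor gene were among the nearest to Fos and Egr3, the background signal was set beside them. The mean level of the 1194 receptor genes was 4.94, 4.94 and 4.92 with the empty vector and 4.98, 5.04 and 4.96 with IKZF1. It was highest on IKZF1 2, as were Fos and Egr3, and differed between groups by 0.06, against 0.43 for Fos and 0.33 for Egr3. That value is a mean over many genes, and single genes near Fos and Egr3 differed by more. The differences were 0.37 for Krt88, 0.31 for Sppl2c, 0.24 for Olfr632, 0.21 for Ms4a15 and 0.40 for Slc22a17. None of these passed (limma, adjusted p from 0.089 to 0.24). Of the receptor genes, 16.2% had all IKZF1 arrays above all empty vector arrays and 71.9% had a difference above 0. After cyclic loess normalization with the replicate block, Fos had 0.36 (limma, adjusted p = 0.032) and Egr3 0.29 (adjusted p = 0.044), where 6.44% of all genes passed. The part of the background signal in these differences was not tested further.

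**Figure D3:**
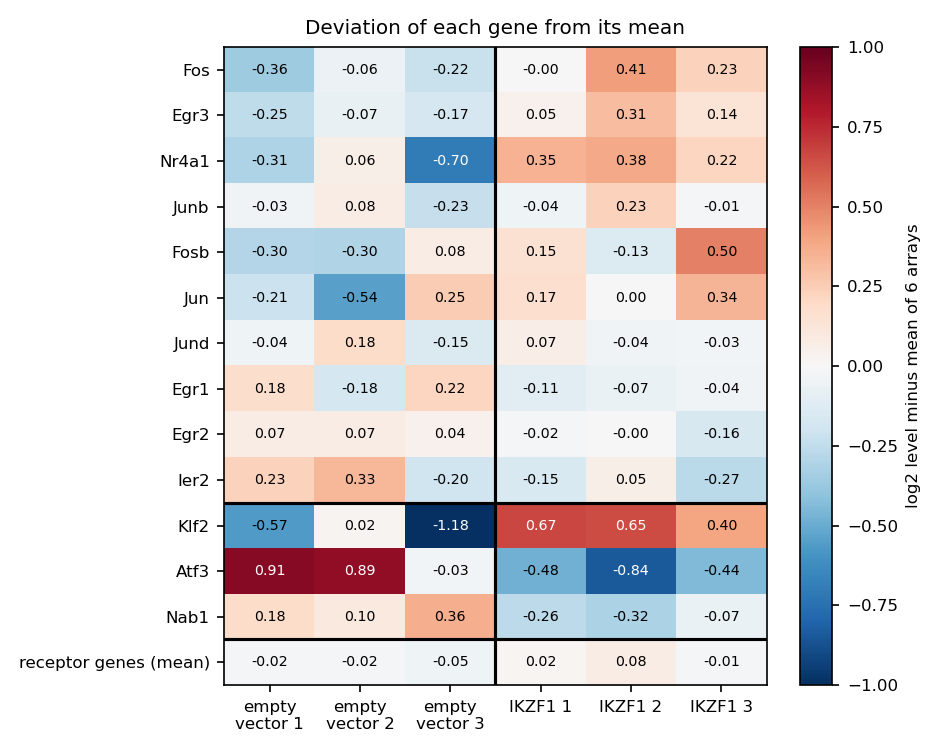
Deviation of each gene's log2 level from its mean over the 6 arrays, written in each cell, for the 10 immediate early genes, for Klf2, Atf3 and Nab1, and for the mean of 1194 receptor genes. Fos and Egr3 share 1 pattern, Nr4a1 follows Klf2 with its lowest cell on empty vector 3, and Jun and Ier2 are mirrored. Klf2 is among the 3 genes picked as most like Nr4a1, so their likeness here is no separate result.

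The upstream stretches of Fos and Nr4a1, called with the block, and of Fosb and Jun, with differences of 0.33 or more that were not called, are shown because these 4 genes carried differences in the same direction. Each line holds the 250 bases before the transcription start given by RefSeq on GRCm38.p6, read 5′ to 3′ on the gene's strand, at chr12:85473640-85473889 (plus strand) for Fos, chr7:19310046-19310295 (minus strand) for Fosb, chr4:95052223-95052472 (minus strand) for Jun and chr15:101266596-101266845 (plus strand) for Nr4a1. Capitals mark matches, on either strand, to the CREB site core TGACG, the AP-1-like sequence TGCGTCA, whose reverse complement contains that core, the EGR sequence GCGNGGGCG and the Ikaros core TGGGAA.
Fos: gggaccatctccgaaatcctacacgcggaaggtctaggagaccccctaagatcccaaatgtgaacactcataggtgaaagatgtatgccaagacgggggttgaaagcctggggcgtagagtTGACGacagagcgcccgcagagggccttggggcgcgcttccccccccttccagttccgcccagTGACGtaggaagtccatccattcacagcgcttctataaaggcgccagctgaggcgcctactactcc
Fosb: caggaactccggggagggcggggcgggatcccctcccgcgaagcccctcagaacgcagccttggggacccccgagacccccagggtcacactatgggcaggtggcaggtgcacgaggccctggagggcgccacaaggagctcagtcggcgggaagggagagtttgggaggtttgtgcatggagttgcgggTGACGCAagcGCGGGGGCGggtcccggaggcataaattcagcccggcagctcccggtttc
Jun: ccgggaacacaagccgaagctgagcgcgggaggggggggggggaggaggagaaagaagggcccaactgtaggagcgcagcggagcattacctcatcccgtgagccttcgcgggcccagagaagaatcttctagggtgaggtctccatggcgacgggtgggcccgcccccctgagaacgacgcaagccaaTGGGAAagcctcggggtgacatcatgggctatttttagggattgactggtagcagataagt
Nr4a1: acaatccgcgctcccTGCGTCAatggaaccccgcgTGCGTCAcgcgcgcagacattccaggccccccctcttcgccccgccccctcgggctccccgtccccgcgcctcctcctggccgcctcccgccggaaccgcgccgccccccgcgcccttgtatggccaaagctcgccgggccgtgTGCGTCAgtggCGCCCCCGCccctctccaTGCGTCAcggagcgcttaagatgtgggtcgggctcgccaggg

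Nr4a1 held 4 matches to TGCGTCA, each overlapping a match to TGACG, and 1 to the EGR sequence. At least 1 match to TGCGTCA occurred in 1.75% of the 32851 windows of this length in the RefSeq table, and 4 or more in 1 window, that of Nr4a1 itself. For TGACG, 4 or more matches occurred in 45 windows (0.137%). Fos held 2 matches to TGACG (17.8% of windows held 1 or more and 3.90% held 2 or more). Fosb held 1 match to TGACG, overlapping 1 to TGCGTCA, and 1 to the EGR sequence (4.70% of windows). Jun held 1 match to the Ikaros core, which 21.6% of windows held, and none of the other 3. The sequence TGCGTCA was chosen with the Nr4a1 promoter in view. The table had windows for 7 of the 10 members, 11 windows in all. Junb held 1 match to TGACG, Jund held 1 to the Ikaros core, and 3 overlapping windows of Egr2, of its 5, held 2 matches to TGACG and 1 to the CArG box, the site of SRF, which a further window of Egr2 also held (1.47% of all windows). Also searched were the full CREB site TGACGTCA and the AP-1 site TGACTCA, found in no window of a member and in 1.55% and 4.46% of all windows. For these 2 sites only the exact strings were searched, so a variant such as TGACATCA, which the Jun window holds, was not counted. The TATA sequence TATAAA, searched as well, was found in the window of Fos and in 12.4% of all windows. Only the windows were searched, so a site further upstream, a CArG box included, was not counted for any member. Egr1, Egr3 and Ier2 had no window. A member without a match here may thus still have the site. A match is a string of letters and not evidence of binding.

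Around the members, the pathway was read from lists of related genes. Beside each count of calls below stand 2.25% of all genes that passed in limma and 7.21% with the block. As for the members, none of the genes of these 7 pathway lists called with the block was called with it once the arrays of number 1 or of number 2 were left out. Of 13 measured AP-1 and small Maf leucine zipper genes 0 passed in limma, and with the replicate block 1 was lower. This was Atf3, a stress-induced partner and repressor of AP-1, which read 9.26, 9.24 and 8.32 with the empty vector and 7.87, 7.52 and 7.91 with IKZF1. All IKZF1 arrays were lower, and the difference of -1.18 ± 0.27 (SE, n = 3 per group; limma, adjusted p = 0.084, and 0.048 with the block) had the opposite sign to those of Fos and Jun. Without empty vector 3, where 4.75% of all genes passed, Atf3 was called without the block (-1.49, adjusted p = 0.0040), and with cyclic loess or quantile normalization it was not called with the block (adjusted p = 0.064 and 0.055). Atf2 (-0.20) and Jdp2 (-0.26), leucine zipper genes as well, had adjusted p of 0.26 and 0.31. The median of the list was 0.08.

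Of 5 further EGR and NR4A genes and corepressors 0 passed in limma, and with the block 1 was lower, Nab1, the corepressor that EGR proteins recruit. It read 10.86, 10.78 and 11.04 with the empty vector and 10.42, 10.36 and 10.61 with IKZF1, with no overlap. Its difference was -0.43 ± 0.10 (SE, n = 3 per group; limma, adjusted p = 0.087, and 0.020 with the block). The other 4 genes did not pass in either fit. Nab2, which EGR proteins induce, had 0.16 (adjusted p = 0.43), and Egr4, the remaining EGR gene, 0.27 (adjusted p = 0.24). Of the NR4A relatives, Nr4a2 had -0.16 (adjusted p = 0.26) and Nr4a3, which lay below the background level, 0.07 (adjusted p = 0.63), and neither was tested against Nr4a1.

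Of 27 other immediate early genes 1 was higher and 26 did not pass, and with the block 4 were higher and 1 lower. Of all genes, 2.25% passed without the block, 7.21% with it and 4.75% without empty vector 3. Trib1, a pseudokinase gene, was the one that rose (0.44 ± 0.06, SE; limma, adjusted p = 0.027, and 0.020 with the block). Its call was lost when any single array other than empty vector 3 was left out (adjusted p from 0.077 to 0.14). Without empty vector 3 there were 3 calls in the list, Trib1 higher and Myc and Klf10, a zinc finger factor gene, lower (-0.53 and -0.70, adjusted p = 0.031 and 0.029). With the block Klf2 (1.15, adjusted p = 0.026), the antiproliferative gene Btg2 (0.87, adjusted p = 0.0067) and Dusp2, a nuclear MAPK phosphatase gene (0.47, adjusted p = 0.049), were higher and Myc was lower (-0.39, adjusted p = 0.041), against adjusted p of 0.11, 0.23, 0.19 and 0.20 without it. Klf2 read 8.39 to 9.59 with the empty vector and 10.24, 10.22 and 9.97 with IKZF1, with no overlap. Its lowest array was empty vector 3, as for Nr4a1. After cyclic loess normalization with the block, Dusp2 and Myc were not called (limma, adjusted p = 0.054 and 0.059). The list median was 0.07.

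Of 18 genes of factors that act on immediate early promoters 0 passed in limma, and with the block 1 was lower, Mef2c (-0.35, adjusted p = 0.052, and 0.035 with the block), a factor of the MEF2 family that B cells use. Crtc2, a CREB coactivator gene, had 0.27 (adjusted p = 0.061) and Mef2d 0.20 (adjusted p = 0.16). Of 13 measured kinases and Ras genes of the ERK, JNK and p38 pathways 0 passed, and with the block Map2k6, a p38 kinase kinase gene, was lower (-0.44, adjusted p = 0.068, and 0.023 with the block). Map2k1 and Braf, of the ERK pathway, had -0.19 and -0.15 (adjusted p = 0.16 and 0.29). The medians of these lists were 0.09 and -0.04.

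Of 8 lymphocyte activation genes 1 was higher and 7 did not pass, and with the block 3 were higher. The shares of all genes were 2.25% without the block, 7.21% with it and 4.75% without empty vector 3. Cd83 rose by 0.53 ± 0.07 (SE; limma, adjusted p = 0.019), a call lost when any single array other than empty vector 3 was left out (adjusted p from 0.055 to 0.13). Without empty vector 3 there were 2 calls, Cd83 higher and Tnfaip3, which encodes an inhibitor of NF-κB signalling, lower (-0.44, adjusted p = 0.033). In the fit of all arrays the costimulatory gene Cd86 (0.33) and the nuclear inhibitor gene Nfkbid (0.42) had adjusted p of 0.063 and 0.12, and 0.039 and 0.041 with the block. Cd86 lay below the background level, at 5.36 with the empty vector and 5.69 with IKZF1. It was not called after cyclic loess normalization with the block (limma, adjusted p = 0.053). Cd69, an early activation antigen, had 0.02 (adjusted p = 0.92) and is named after its value was seen. The list median was 0.25. Heat shock genes were taken as a measure of handling during sorting: of 8 measured, 0 passed with or without the block, 2 had an unadjusted p under 0.05 and the median was -0.13. The nearest to the threshold were Hspe1 (-0.34), Hspa1a (0.39) and Hspa8 (-0.24), with adjusted p of 0.14, 0.15 and 0.34. Their groups did not overlap: all IKZF1 arrays were higher for Hspa1a and lower for Hspe1 and Hspa8. Of all genes, 15.2% were higher and 11.3% lower without overlap.

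**Figure D4:**
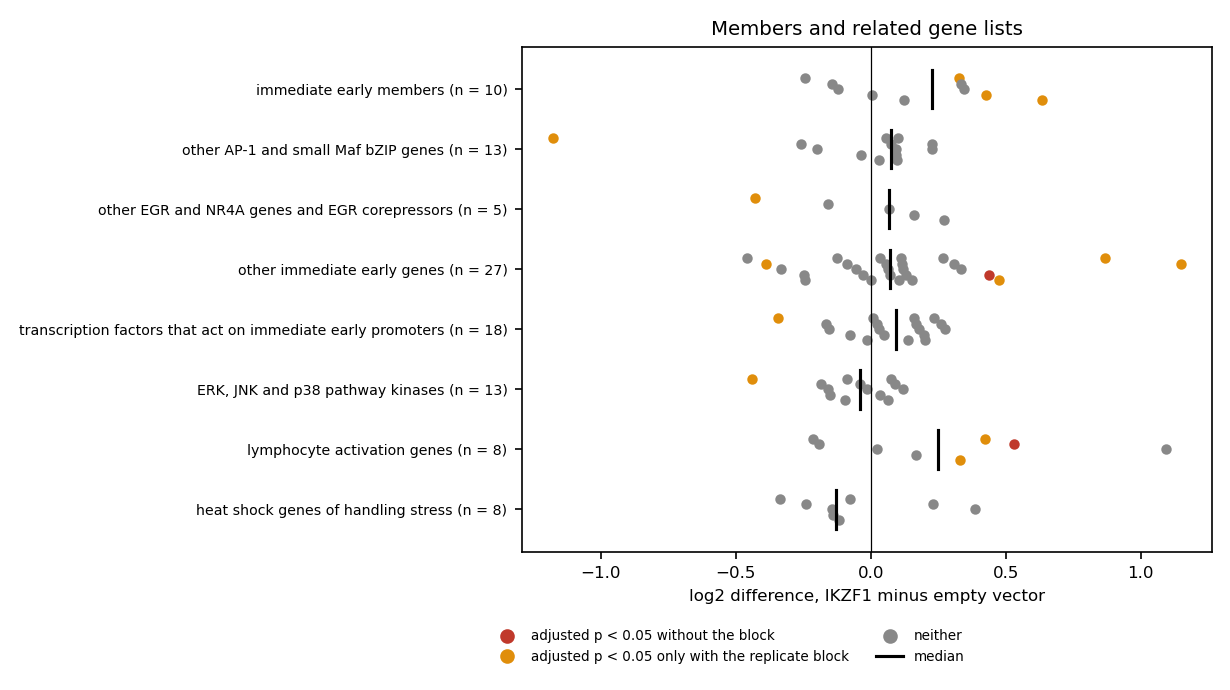
Log2 difference, IKZF1 minus empty vector, of the immediate early members and of 7 lists of related genes, 1 point per gene, with the list median as a black bar. Trib1 and Cd83 are the 2 genes past the threshold without the block (red), and Atf3, at -1.18, and Klf2, at 1.15, mark the ends among genes past it only with the block (orange).

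Markers of other cells were read for the same arrays, where 2.25% of all genes passed in limma and 7.21% with the block. Of 10 myeloid markers 1 was higher, Ly6g (4.47, limma, adjusted p = 0.0014), and the summed intensity of the other 9 ran from 504.8 to 549 on the empty vector arrays and from 477 to 559 on the IKZF1 arrays. By their means over the 6 arrays, 7 of those 9 lay below the background level, Mpo, Elane and Csf1r among them. Prtn3 (6.70 with the empty vector and 6.64 with IKZF1) and Lyz2 lay above it. Lyz2, the lysozyme gene, had 6.42 with the empty vector and 5.95, below that level, with IKZF1, without overlap. Its difference of -0.47 did not pass (limma, adjusted p = 0.20). Of 9 T and NK cell markers, 3 erythroid markers and 7 stromal markers 0 passed in limma, and with the block the stromal gene Col1a1 (0.30, adjusted p = 0.28, and 0.0499 with the block) was higher. The summed intensity was 454 to 462 against 493 to 608 for T and NK cells, 199.9 to 210.1 against 193 to 233 for erythroid cells and 540 to 623 against 614 to 765 for stromal cells. Only 2 of the 9 T and NK, 1 of the 3 erythroid and 3 of the 7 stromal markers lay above the background level. The part of the background signal in these sums was not tested. Without overlap, 4 T and NK markers were higher and 1 was lower, and 2 stromal markers were higher, beside 15.2% and 11.3% of all genes. Among the higher ones were Cd3e (0.39), Col3a1 (0.31) and Col1a2 (0.29), with adjusted p of 0.21, 0.21 and 0.27 (limma). The highest array for these 3 lists was IKZF1 2, as for Fos and Egr3, and the part of these lists in the differences of Fos and Egr3 was not tested. In bulk RNA, a change in the share of cells and a change in RNA per cell cannot be told apart.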

How the data were processed

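The authors deposited 1 table of probe set intensities for 6 Affymetrix arrays, normalized with RMA per the submitters' processing notes; software and parameters were not given in the sources used here. All values are linear (11.1 to 23523), so log2(intensity + 1) was computed. Of 35421 probe sets, 21789 have 1 gene symbol, 1621 several and 12011 are unnamed here; the brightest probe set stood for each of 19936 genes. Symbols were updated by gene number through RefSeq for 21698 probe sets. Differences were fitted in limma (version 3.58.1, R 4.3.3; lmFit, eBayes), Benjamini-Hochberg adjusted over all genes at 0.05; the code was tested on simulated data.

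As a check of pairing, arrays that share a number were compared by their deviations from the group mean across genes, which gave r = 0.24, 0.60 and 0.66, all above the limit of 0.1 set for pairing, though empty vector 1 with IKZF1 2 (r = 0.11) lay above it too; the labels do not say what a number marks. The members and lists were chosen with earlier results of these data known. Of 148 list entries 132 were measured; the rest were not analysed here. Genes named are the members, pathway list genes called with or without the block (where under 3, the 3 smallest p), and the 3 genes most like each member; Nab2, Nr4a3, Cd69, Klf10, Tnfaip3 and the markers of other cells were named after their values were seen. There were 26 alternatives, 8 of them chosen after seeing the data.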

Additional observations from a re-analysis of the deposited data

How the results depend on the processing

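Fos, Fosb, Jun, Junb, Egr3 and Nr4a1 had differences above 0, and Egr1, Egr2 and Ier2 below 0, in all 26 alternatives run. Over the 10 members and 26 alternatives, 233 of 260 values kept direction and side of the threshold, 19 passed it and 8 turned, all 8 of Jund. Jund, at 0.0059, was -0.037 with arrays centred on their medians, ran from -0.066 to 0.099 with single arrays left out, and was -0.048 and -0.052 without both arrays of number 1 and of number 3, with or without the block. The number of members called in limma was 0 without the replicate block, 3 with it, 3 with replicate number as a random block, 2 with array weights (a fit that stopped short of convergence), 3 with cyclic loess and 3 with quantile normalization together with the block, and 0 under each other setting without the block, single arrays left out included. With the block it was 0 without both arrays of number 1 or of number 2, and 5 (4 higher, 1 lower) without those of number 3. The fits without a pair of arrays have few degrees of freedom.

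The number of all genes called was 448, and 1438 with the replicate block, 1664 with the random block, 1481 with array weights, 1284 with cyclic loess and 1364 with quantile normalization together with the block, and between 24 and 947 with single arrays left out. Without both arrays of number 1, 2 or 3 it was 1, 3 and 515, and 25, 56 and 2489 with the block. The arrays carry no read depth. Egr2 and Fos were the members nearest the background level, where a difference can be understated. The receptor genes were themselves higher by 0.06 with IKZF1. Whether the differences of Egr2 and Fos are understated or overstated was not tested.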
